A study of Mus musculus with 6 samples.

Results

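Blood vessel growth genes were followed in 6 mouse tumors of 4T1, a mouse mammary carcinoma line that is injected into mice to study triple-negative disease. The set held 10 genes listed by symbol: 3 vascular endothelial growth factor ligands (Vegfa, Vegfb, Vegfc), their 3 receptor tyrosine kinases (Flt1, Kdr, Flt4), the angiopoietin ligands Angpt1 and Angpt2, their receptor Tek, and the endothelial adhesion molecule Pecam1. All 10 had a row among the 23508 genes of the count table, and all 10 passed the filter on low counts. RNA had been sequenced from 3 tumors collected when neural activity in them first peaked (with peak) and from 3 collected ahead of that day (before peak). Tumors are numbered by the replicate numbers of their labels. All 6 were untreated 4T1 tumors as far as the labels go, which name no host strain, site of growth, tumor age or size, so that a later collection day and the peak itself cannot be told apart. Nothing in them says that each tumor had its own host animal, and p-values therefore cover the spread between these 6 samples only.

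As background, vascular endothelial growth factors are secreted proteins that bind receptors on endothelial cells, the cells that line vessels. Vegfa is the main driver of sprouting from blood vessels and is induced in poorly oxygenated tissue, and Vegfc drives the growth of lymphatic vessels. Angiopoietins act on a separate receptor that governs how tightly endothelial cells hold together and how closely mural cells wrap them. In solid tumors carcinoma and stromal cells make most of the vascular endothelial growth factors, whereas the receptors are concentrated on endothelium. Macrophages and monocytes also carry Flt1, and platelets and leukocytes also carry Pecam1.

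No difference between with-peak and before-peak tumors beyond the spread between tumors was detected for any of the 10 genes. By the edgeR quasi-likelihood test, with Benjamini-Hochberg adjustment over 16755 genes, 0 of the 10 were called at an adjusted p under 0.05. The background was 0% of all genes tested, with a smallest adjusted p of 0.0828. Nor did any of the 10 have an unadjusted p under 0.05, against 9.5% of all genes tested, and none was called by DESeq2, which called 1.62% of the genes it tested. The groups overlapped for all 10 genes, while they did not overlap for 15.5% of all genes tested. Fold changes, given throughout on the log2 scale with before-peak tumors in the denominator, ran from -0.17 for Flt4 to 0.55 for Tek, with a median of 0.04, beside -0.02 over all genes tested. With each tumor left out in turn that median ran from -0.02 (without with-peak tumor 2) to 0.26 (without before-peak tumor 2).

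Total counts were 10591067 to 14549357 per tumor, so the lowest member, Angpt1, rested on 29 to 70 counts per tumor, while Vegfa and Pecam1 rested on 873 to 2456. The carcinoma markers Epcam, Krt8 and Krt18 were detected in every tumor. So were the endothelial markers Cdh5, Cldn5, Emcn, Esam, Robo4, Vwf and Egfl7, with Cdh5 at 64.4 to 146 CPM (counts scaled to library size by TMM) with peak and 79.1 to 112 CPM before the peak. Macrophage markers (15 genes) summed to 4732 to 6487 CPM with peak and 2648 to 3934 CPM before the peak, and red cell and platelet markers (11 genes) to 339 to 2214 CPM with peak and 165 to 309 CPM before the peak. In these bulk tissues, fewer cells of a type and less RNA per cell cannot be told apart.

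Promoter sequences are shown for Vegfa and Flt1, and for Kdr and Tek. The first pair was highest in a before-peak tumor and the second pair in a with-peak tumor. Vegfb, Vegfc and Flt4 were also highest in a before-peak tumor, and their promoters are not printed. Each line gives the 250 bases before the RefSeq start on GRCm38.p6, written 5′ to 3′ on the strand of the gene, with capitals on the ETS core GGAA or its reverse complement TTCC.
Vegfa (chr17:46032378-46032627, minus strand): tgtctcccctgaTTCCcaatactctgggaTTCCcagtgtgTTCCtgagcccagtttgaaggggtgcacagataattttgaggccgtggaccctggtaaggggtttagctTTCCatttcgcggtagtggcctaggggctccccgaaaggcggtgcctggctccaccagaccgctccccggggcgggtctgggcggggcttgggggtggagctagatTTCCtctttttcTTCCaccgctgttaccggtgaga
Flt1 (chr5:147726012-147726261, minus strand): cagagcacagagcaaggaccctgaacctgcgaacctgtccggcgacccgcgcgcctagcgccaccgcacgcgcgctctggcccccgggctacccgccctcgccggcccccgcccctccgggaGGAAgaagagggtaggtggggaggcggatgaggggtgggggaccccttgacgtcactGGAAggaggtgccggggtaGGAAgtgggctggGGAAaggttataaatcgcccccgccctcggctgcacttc
Kdr (chr5:75978456-75978705, minus strand): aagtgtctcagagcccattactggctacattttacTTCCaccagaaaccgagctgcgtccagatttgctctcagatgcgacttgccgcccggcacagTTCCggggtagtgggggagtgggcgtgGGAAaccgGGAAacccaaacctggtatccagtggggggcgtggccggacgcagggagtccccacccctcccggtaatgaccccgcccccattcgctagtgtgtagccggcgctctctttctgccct
Tek (chr4:94739039-94739288, plus strand): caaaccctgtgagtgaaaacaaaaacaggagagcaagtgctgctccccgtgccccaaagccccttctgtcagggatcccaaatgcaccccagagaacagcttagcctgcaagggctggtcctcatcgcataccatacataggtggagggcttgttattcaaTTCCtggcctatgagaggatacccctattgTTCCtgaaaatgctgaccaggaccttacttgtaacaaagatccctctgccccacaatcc

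The RefSeq table held a promoter for 7 of the 10 genes. GGAA, the core bound by the ETS transcription factors of endothelial cells, was counted on both strands. It was found 6 times before Vegfa, 4 times before Flt1, 4 times before Kdr and 2 times before Tek. Before Vegfb, Vegfc and Flt4, it was found 1, 1 and 2 times. A match of these letters is common, since 93.4% of 32851 promoters of the same length held at least 1, with a median of 3. The GC box GGGCGG, also counted on both strands, occurred 2 times before Vegfa, 3 times before Flt1, 2 times before Kdr and 0 times before Tek, and 32.7% of promoters held it. ACGTG, a form of the core of the hypoxia response element, was absent from these 7 windows and present in 16.6% of promoters. Other forms of that core, such as GCGTG, were not counted. TATAAA was found once, before Flt1, against 12.4% of promoters. These are counts of letters in a short window and were not tested against expression.

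Per length, the ligand Vegfa was the most abundant of the 10 genes and Angpt1 the least. CPM per kilobase of merged exon averaged 32.7 ± 7.58 for Vegfa (SD, n = 6 tumors) and 0.678 ± 0.220 for Angpt1. Vegfb, at 20.5 ± 3.02, and Pecam1, at 19.8 ± 5.65, came next and did not differ beyond their spread, with Vegfb above Pecam1 in 4 of 6 tumors. Flt1 followed at 6.31 ± 1.09, above Angpt2 at 5.31 ± 0.976 in all 6 tumors although their ranges overlapped. Vegfc, at 4.49 ± 1.00, and Kdr, at 3.89 ± 1.42, were close neighbours, and so were Kdr and Tek, at 3.08 ± 1.27. Flt4 stood below Tek in all 6 tumors, at 1.30 ± 0.286. With the length of the longest coding transcript instead, chosen after seeing the data, Pecam1 moved above Vegfb, at 35.8 and 25.7. Kdr moved above Angpt2 in the mean, at 5.93 and 5.51, though in only 1 of 6 tumors. Vegfa, Flt1, Tek, Flt4 and Angpt1 kept their places, with Vegfa above Pecam1 in 4 of 6 tumors on that scale.

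**Figure D1:**
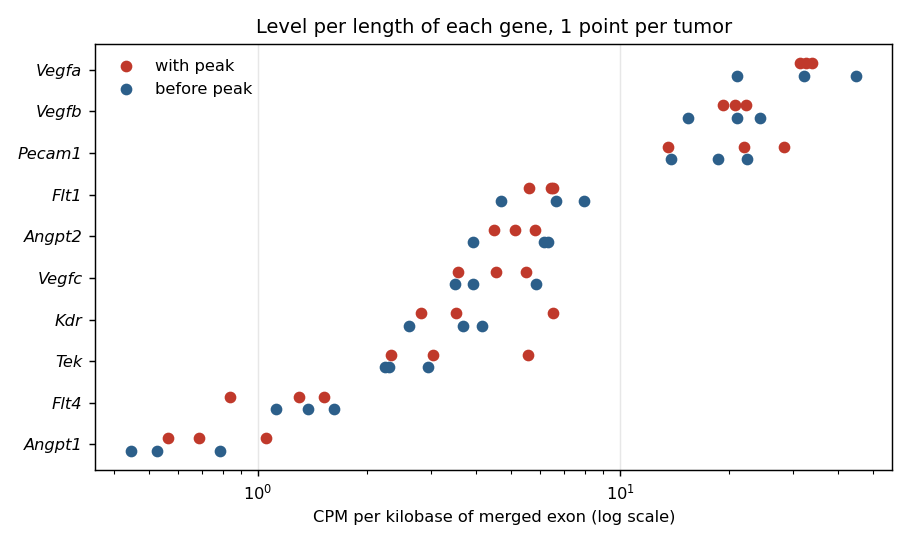
Level of each gene as CPM per kilobase of merged exon (log axis), 1 point per tumor, with-peak tumors in red above before-peak tumors in blue. Vegfa lies highest, at a mean of 32.7 over the 6 tumors, and Angpt1 lowest, at 0.678, and within every gene the colors overlap.

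Among the ligands, Vegfa (ENSMUSG00000023951, chromosome 17, 46016993 to 46032369, GRCm38) was at 145, 140.1 and 134 CPM in with-peak tumors 1, 2 and 3, against 90.2, 192 and 138 CPM in before-peak tumors 1, 2 and 3. The with-peak tumors all lay inside the before-peak range, and the before-peak tumors held both the lowest and the highest value. The means were 139.8 ± 5.43 CPM with peak and 140.2 ± 51.1 CPM before the peak (SD, n = 3 each). The log2 fold change was 0.00 with a 95% interval of -0.57 to 0.57 (edgeR adjusted p = 0.999). Leaving out before-peak tumor 1 gave -0.24 and leaving out before-peak tumor 2 gave 0.29, while without with-peak tumor 3 it was 0.03.

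Vegfb, a ligand of Flt1 that is abundant in muscle and other oxidative tissue, was at 35.8, 30.9 and 33.3 CPM in with-peak tumors 1, 2 and 3, against 33.7, 39.1 and 24.8 CPM in before-peak tumors 1, 2 and 3. Again the with-peak tumors fell within the before-peak range. Skeletal muscle markers (20 genes) summed to 311, 1843 and 1802 CPM in with-peak tumors 1, 2 and 3, against 73.4 to 362 CPM before the peak. Their part in the Vegfb level was not tested. The log2 fold change of Vegfb was 0.03 (95% interval -0.36 to 0.43, edgeR adjusted p = 0.967), turning to -0.13 without before-peak tumor 3 and to -0.02 without with-peak tumor 1 or with library size alone.

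For Vegfc, the ligand of the lymphatic receptor, the values were 11.2, 13.5 and 8.73 CPM in with-peak tumors 1, 2 and 3, against 9.63, 14.3 and 8.58 CPM in before-peak tumors 1, 2 and 3. The tumor numbered 2 was the highest of each group. The log2 fold change was 0.04 (95% interval -0.57 to 0.64, edgeR adjusted p = 0.977), and it became negative without with-peak tumor 2 (-0.13), without before-peak tumor 1 (-0.04) or 3 (-0.11), or with library size alone (-0.02).

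**Figure D2:**
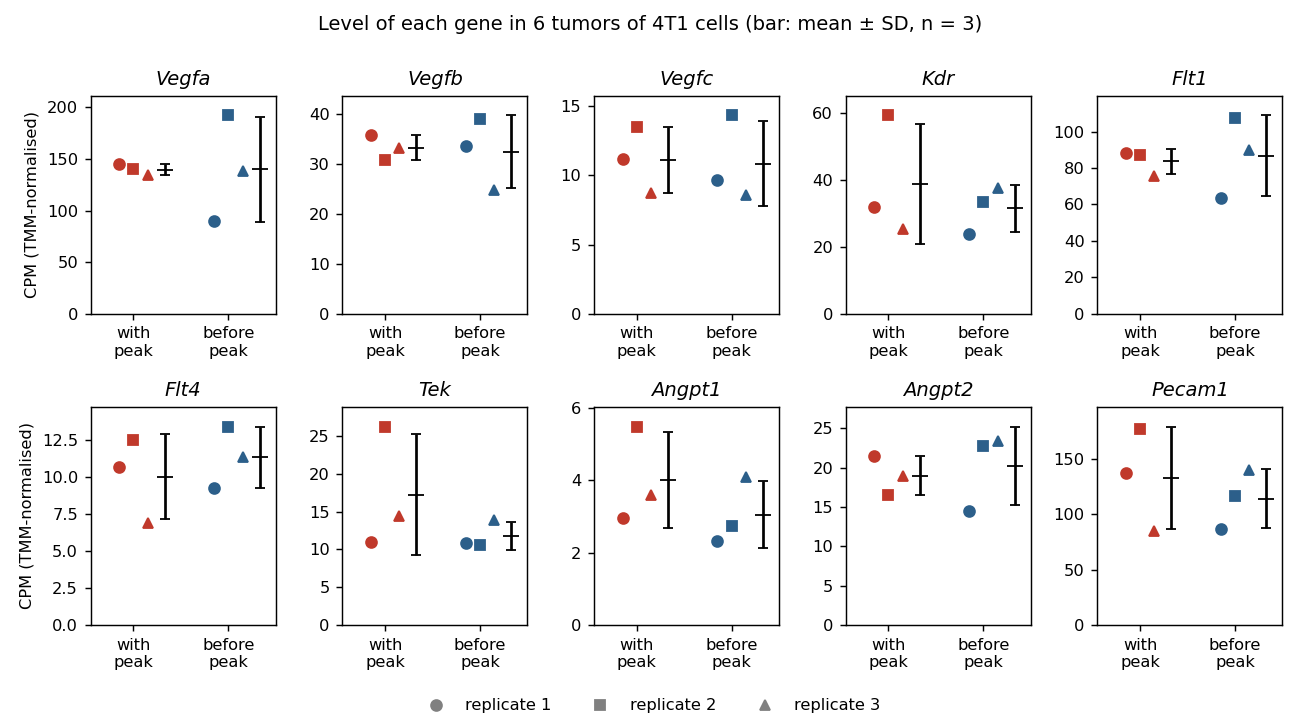
TMM-normalised CPM of the 10 genes in each tumor (y axis from 0, a panel per gene), with-peak tumors in red at the left and before-peak tumors in blue at the right, with the mean ± SD of 3 tumors as a black bar. With-peak tumor 2 stands highest for Kdr (59.2 CPM), Tek (26.2 CPM), Angpt1 (5.48 CPM) and Pecam1 (177 CPM). Before-peak tumor 2 stands highest for Vegfa (192 CPM), Flt1 (107 CPM), Vegfb (39.1 CPM), Vegfc (14.3 CPM) and Flt4 (13.4 CPM).

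Of the receptors, Kdr, the main signaling receptor for Vegfa (ENSMUSG00000062960, chromosome 5, 75932827 to 75978458), was at 31.8, 59.2 and 25.4 CPM in with-peak tumors 1, 2 and 3. Before the peak it was at 23.7, 33.2 and 37.5 CPM in tumors 1, 2 and 3. With-peak tumor 2 was far above all other tumors, and the remaining with-peak tumors lay among the before-peak ones. Its log2 fold change of 0.30 had a 95% interval of -0.48 to 1.08 (SE 0.33, edgeR adjusted p = 0.807), and without with-peak tumor 2 it was -0.14.

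Flt1, a receptor that binds Vegfa tightly but signals weakly and also exists as a soluble trap (chromosome 5, 147561604 to 147726011), was at 88.2, 87.0 and 75.6 CPM in with-peak tumors 1, 2 and 3. In before-peak tumors 1, 2 and 3 it was at 63.5, 107 and 89.7 CPM, so that its with-peak tumors lay inside the before-peak range, as for Vegfa. The log2 fold change was -0.05 (95% interval -0.46 to 0.35, edgeR adjusted p = 0.944), with 0.13 when before-peak tumor 2 was left out and 0.02 when with-peak tumor 3 was. Counts per gene do not separate the soluble from the membrane form. Macrophage markers, another source of Flt1 transcripts, had summed levels that did not overlap between the groups, higher with peak, and their part in the Flt1 level was not tested.

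Flt4, the receptor for Vegfc on lymphatic and sprouting endothelium, was at 10.7, 12.5 and 6.89 CPM in with-peak tumors 1, 2 and 3, against 9.23, 13.4 and 11.3 CPM in before-peak tumors 1, 2 and 3. Its log2 fold change was -0.17 (95% interval -0.78 to 0.44, edgeR adjusted p = 0.876), and 0.04 without with-peak tumor 3, the lowest tumor. Set against the summed level of 30 endothelial identity genes, which holds none of the 10, Flt4 was 1.02%, 0.796% and 0.910% of that sum in with-peak tumors 1, 2 and 3, against 1.11%, 1.45% and 1.22% in before-peak tumors 1, 2 and 3. The groups did not overlap on this scale for Flt4 and overlapped for the other 9 genes, beside 7.21% of all genes tested whose groups did not overlap on the same scale, so a count of 1 in 10 is near that background. The difference in log2 share was -0.47, and -0.56 to -0.36 with each tumor left out in turn. It is given as a description, with no test.

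Tek, the receptor for both angiopoietins (ENSMUSG00000006386, chromosome 4, 94739289 to 94874976), had the largest fold change of the 10 genes. It was at 11.0, 26.2 and 14.4 CPM in with-peak tumors 1, 2 and 3, against 10.8, 10.6 and 13.9 CPM in before-peak tumors 1, 2 and 3. With-peak tumor 2 stood apart, with-peak tumor 3 was just above the highest before-peak tumor, and with-peak tumor 1 was below it. The means of 17.2 ± 8.01 CPM with peak and 11.8 ± 1.86 CPM before the peak (SD, n = 3 each) gave a log2 fold change of 0.55. Its 95% interval was -0.17 to 1.26 (SE 0.32, edgeR adjusted p = 0.638), and without with-peak tumor 2 the value was 0.10. With-peak tumors 2 and 3 were also the tumors with the most skeletal muscle and red cell transcripts, whose part in the Tek level was not tested.

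Angpt1, the activating ligand of Tek that mural cells make, was at 2.95, 5.48 and 3.59 CPM in with-peak tumors 1, 2 and 3. Before the peak it was at 2.33, 2.74 and 4.08 CPM in tumors 1, 2 and 3, and the groups overlapped. The log2 fold change was 0.39 (95% interval -0.47 to 1.26, edgeR adjusted p = 0.784), or 0.09 without with-peak tumor 2. Angpt1 shares 737 bases of exon with the antisense gene Gm17473, which had 39 counts in all 6 tumors together, and without strand marking their reads cannot be told apart.

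Angpt2, the ligand that endothelial cells store and release during remodeling and that can oppose Angpt1, was at 21.5, 16.5 and 18.9 CPM in with-peak tumors 1, 2 and 3, against 14.4, 22.8 and 23.4 CPM in before-peak tumors 1, 2 and 3. The with-peak tumors lay inside the before-peak range. The log2 fold change was -0.09 (95% interval -0.58 to 0.40, edgeR adjusted p = 0.921). It was 0.00 without before-peak tumor 2 and 0.03 without before-peak tumor 3.

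Per kilobase of merged exon, Angpt2 exceeded Angpt1 in every tumor. The ratio of Angpt2 to Angpt1 was 10.3, 4.25 and 7.43 in with-peak tumors 1, 2 and 3, against 8.76, 11.7 and 8.09 in before-peak tumors 1, 2 and 3. The ratio was lowest in with-peak tumor 2, and the groups overlapped. The ratio of Flt1 to Kdr was 1.86, 0.983 and 1.99 in with-peak tumors 1, 2 and 3, against 1.79, 2.16 and 1.60 in before-peak tumors 1, 2 and 3, again lowest in with-peak tumor 2. By the length of the longest coding transcript, Flt1 to Kdr was 2.386, 1.263 and 2.555 in with-peak tumors 1, 2 and 3. Before the peak it was 2.054 to 2.776 on that scale, so whether Flt1 lies below Kdr in with-peak tumor 2 depends on the length used. Differences in mean log2 ratio were -0.45 for Angpt2 to Angpt1 and -0.26 for Flt1 to Kdr. Without with-peak tumor 2 they were -0.10 and 0.07.

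Pecam1, an adhesion molecule of endothelial junctions (ENSMUSG00000020717, chromosome 11, 106654217 to 106750628), was at 137, 177 and 84.7 CPM in with-peak tumors 1, 2 and 3. In before-peak tumors 1, 2 and 3 it was at 86.4, 116 and 139 CPM. The with-peak group held both the highest and the lowest tumor. Its log2 fold change of 0.22 (95% interval -0.47 to 0.91, edgeR adjusted p = 0.842) was -0.04 without with-peak tumor 2.

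**Figure D3:**
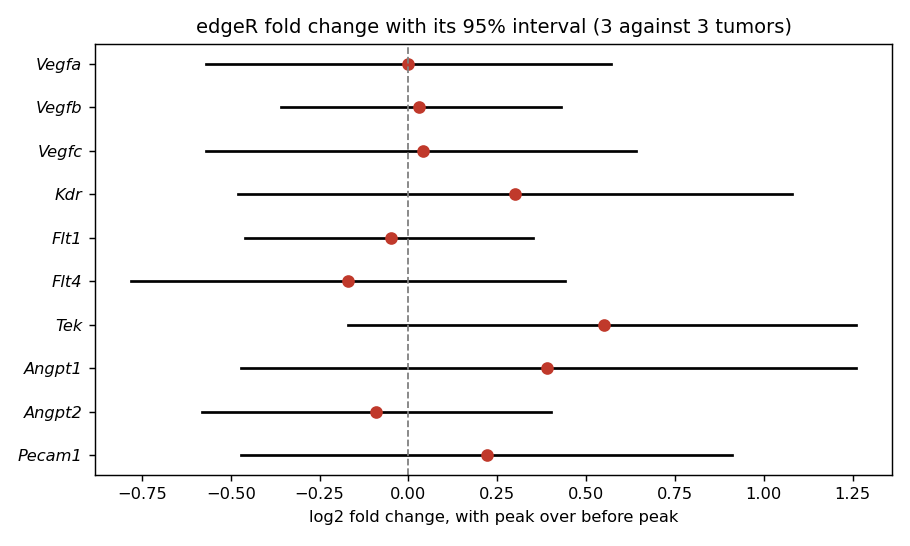
log2 fold change of each gene (x axis, with peak over before peak, red points) with its 95% interval from the edgeR fit (black lines, 3 against 3 tumors). Every interval crosses 0, from Flt4 at -0.17 to Tek at 0.55, and the intervals of Tek and Angpt1 reach 1.26.

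The 10 genes did not vary over the tumors as 1 block. Vegfa, Kdr, Flt1, Angpt1 and Angpt2 were lowest in before-peak tumor 1. Vegfa, Vegfb, Vegfc, Flt1 and Flt4 were highest in before-peak tumor 2. Kdr, Tek, Angpt1 and Pecam1 were instead highest in with-peak tumor 2. That tumor also had the highest summed level of endothelial identity genes, 1575 CPM, against 1043 and 757 CPM in with-peak tumors 1 and 3 and 831 to 930 CPM in the before-peak tumors. Pericyte and mural markers (13 genes) were highest there too, at 800 CPM, against 536 and 429 CPM in with-peak tumors 1 and 3 and 422 to 567 CPM before the peak. Fibroblast markers (14 genes) were at 18360 CPM in it and 7293 to 12360 CPM in the other 5 tumors. Adipocyte and macrophage markers were also highest there, at 3052 and 6487 CPM. So were skeletal muscle markers, at 1843 CPM, close to the 1802 CPM of with-peak tumor 3. Carcinoma epithelial markers were lowest in it, at 3243 CPM, against 3903 to 5109 CPM before the peak. Red cell and platelet markers were highest in with-peak tumor 3, and lymphocyte markers in before-peak tumor 3. As a share of the endothelial sum, Kdr was 3.05%, 3.76% and 3.36% in with-peak tumors 1, 2 and 3, and 2.85% to 4.03% before the peak. Pecam1 was 11.2% to 13.1% of that sum with peak and 10.4% to 14.98% before the peak, so its level and that of Kdr in with-peak tumor 2 stood with the endothelial list as a whole. Vegfa was 13.9%, 8.89% and 17.7% of the same sum in with-peak tumors 1, 2 and 3, lowest in tumor 2, and 10.9% to 20.8% before the peak.

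**Figure D4:**
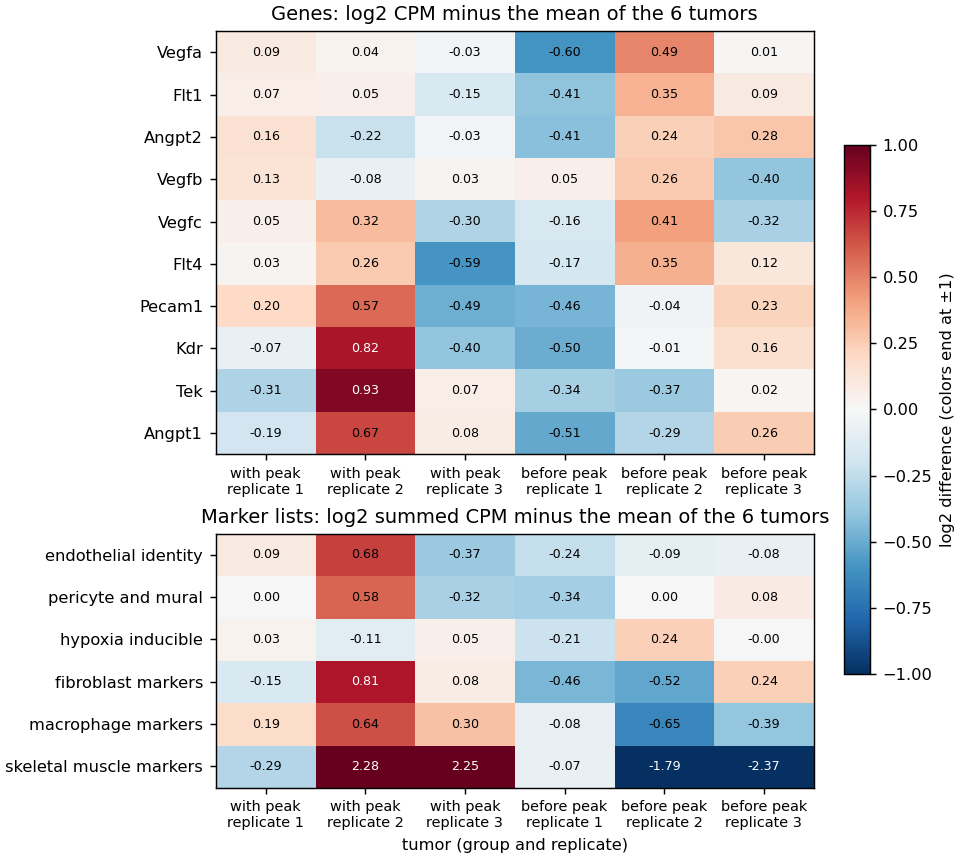
Upper panel, log2 CPM of each gene minus its mean over the 6 tumors. Lower panel, the same for the summed CPM of marker lists. Columns are tumors, with-peak tumors at the left, and colors end at a log2 difference of 1 in either direction. Kdr (0.82), Tek (0.93) and the endothelial list (0.68) are highest in with-peak tumor 2, while Vegfa is highest (0.49) and lowest (-0.60) within the before-peak group.

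Across the 6 tumors, log2 CPM was correlated for all 45 pairs of the 10 genes. The highest values were 0.96 for Vegfa with Flt1 (Spearman's rho 0.83), 0.93 for Kdr with Pecam1 (rho 0.89) and 0.93 for Tek with Angpt1 (rho 0.89). By exact two-sided permutation tests over 720 orders, the raw p of r was 0.00556, 0.00833 and 0.0111 for these pairs, and that of rho was 0.0583, 0.0333 and 0.0333. Adjusted over the 45 pairs, 0 passed for r (exact permutation, adjusted p = 0.167 for each of the 3) and 0 for rho (adjusted p = 0.463 for each). Without the 2 tumors farthest from the median of the first gene, r was 0.72 for Vegfa with Flt1, 0.90 for Kdr with Pecam1 and 0.89 for Tek with Angpt1. Kdr with Angpt1 came next, with an r of 0.83 (exact permutation, raw p = 0.0444, adjusted p = 0.396). That r was 0.0959 without those 2 tumors. Kdr with Tek had an r of 0.80, which was -0.27 without them, so both values rest on these tumors. All values of a tumor share its library and scaling, and groups of 3 tumors are too small for a value within each group.

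Over the 6 tumors, the genes of at least 10 CPM whose log2 CPM followed Kdr most closely were Ddah1 (Pearson r = 0.992), Peg3 (0.989), Wdr91 (0.988), Pdlim4 (0.988) and Impdh1 (0.987). For Vegfa they were Crtc3 (0.992), Ddit3 (0.991), F730043M19Rik (0.967), C9orf72 (0.965) and Bcar3 (0.965). Of 10781 genes ranked, 79 had an r above 0.9 with Kdr and 33 with Vegfa, so that 6 tumors leave many genes with a like pattern.

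Other genes of these pathways were read from lists that held none of the 10. Among 14 further VEGF ligands, co-receptors and regulators, 12 were tested and 0 were called in either direction (median log2 fold change -0.08). Vegfd, another ligand of Flt4, had the smallest p of that list. It was at 7.72, 23.2 and 11.6 CPM in with-peak tumors 1, 2 and 3, against 5.94, 3.29 and 7.08 CPM in before-peak tumors 1, 2 and 3, higher in every with-peak tumor. Its log2 fold change was 1.38 (SE 0.45, edgeR adjusted p = 0.397), or 0.83 without with-peak tumor 2. Ccbe1, needed for the processing of Vegfc, had a log2 fold change of -0.48 and Thbs2, an inhibitor of angiogenesis, one of 0.59 (edgeR adjusted p = 0.470 and 0.537). Without with-peak tumor 2, Thbs2 was at 0.37. Placental growth factor Pgf was at 35.5 ± 3.33 CPM with peak and 39.2 ± 5.30 CPM before the peak, and the co-receptor Nrp2 at 261.9 ± 14.0 and 262.0 ± 41.4 CPM (SD, n = 3 each).

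In the angiopoietin and Tie list, 12 of 12 genes were tested and 0 were called (median 0.04, 6 positive). Without with-peak tumor 2 the median was -0.10 with 3 of 12 positive, and without with-peak tumor 1 it was 0.23. Ptprb, the endothelial phosphatase that restrains Tek, was at 43.1, 61.5 and 31.5 CPM in with-peak tumors 1, 2 and 3, against 24.5, 23.5 and 37.7 CPM in before-peak tumors 1, 2 and 3 (log2 fold change 0.67, edgeR adjusted p = 0.517; 0.38 without with-peak tumor 2). Angpt4, another angiopoietin, was at 3.93, 3.76 and 0.679 CPM with peak and at most 1.12 CPM before it (log2 fold change 1.83, edgeR adjusted p = 0.472). Angptl2 had a log2 fold change of -0.26 (edgeR adjusted p = 0.546), and Tie1, the partner of Tek, one of 0.31 (edgeR adjusted p = 0.781).

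Of 30 endothelial identity genes, all were tested, 0 were called, and 25 had a positive fold change (median 0.34), where 47.7% of all genes tested did. Without with-peak tumor 2, 15 of the 30 were positive and the median was 0.00. Adgrl4, an adhesion receptor of angiogenic endothelium, was at 31.4, 34.3 and 20.3 CPM in with-peak tumors 1, 2 and 3, against 13.5, 17.0 and 15.6 CPM in before-peak tumors 1, 2 and 3, with no overlap. Its log2 fold change was 0.90 (SE 0.22, edgeR adjusted p = 0.244; DESeq2 adjusted p = 0.0230). Clec14a, a lectin of tumor vessels, was also higher in every with-peak tumor, and its fold change was 1.29 on the log2 scale (SE 0.38, edgeR adjusted p = 0.384; DESeq2 adjusted p = 0.0396), or 0.78 without with-peak tumor 2. Without with-peak tumor 2, Adgrl4 was at 0.75. Plvap, the diaphragm protein of fenestrated vessels, was at 0.68 on the log2 scale (edgeR adjusted p = 0.472), or 0.41 without that tumor.

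Tip cell and sprouting genes had a median of -0.15, with 9 of 13 tested genes negative and 0 called. The median was 0.05, with 7 of 13 positive, without with-peak tumor 3, and -0.37 without with-peak tumor 2. Apln, the apelin peptide made by sprouting tip cells, was at 41.7, 56.9 and 40.8 CPM in with-peak tumors 1, 2 and 3, against 66.2, 81.0 and 72.2 CPM in before-peak tumors 1, 2 and 3, lower in every with-peak tumor. Its log2 fold change was -0.65 (SE 0.16, edgeR adjusted p = 0.244; DESeq2 adjusted p = 0.0366). Jag1 and Dll4, ligands of Notch that act in opposite ways on sprouting, had log2 fold changes of -0.45 and -0.47 (edgeR adjusted p = 0.613 and 0.629). Jag1 was at -0.18 without before-peak tumor 2 and Dll4 at -0.20 without with-peak tumor 3.

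For lymphatic endothelium, 9 of 10 genes were tested, 0 were called, and the median of 0.07 became -0.10 without before-peak tumor 2 and 1.11 without before-peak tumor 3. Pdpn, podoplanin of lymphatic endothelium and fibroblasts, had a log2 fold change of 0.95 (edgeR adjusted p = 0.408; DESeq2 adjusted p = 0.0457), and Mmrn1 and Sema3d had 1.19 and 0.80 (edgeR adjusted p = 0.546 and 0.629). Pdpn was at 0.54 without with-peak tumor 2, and Mmrn1 and Sema3d at 0.79 and 0.52 without before-peak tumor 2. Levels of Mmrn1 and Sema3d were low, at 0.313 to 2.35 CPM and 1.17 to 3.998 CPM over the 6 tumors. Prox1, which defines lymphatic endothelium, was at 0.880 ± 0.548 CPM with peak and 0.849 ± 0.795 CPM before the peak (SD, n = 3 each). Mural markers had a median of 0.25 with 9 of 13 positive, and 0 of 13 were called. Without with-peak tumor 2 the median was -0.14 with 5 of 13 positive. Notch3, Cspg4, Acta2 and Myh11 had negative log2 fold changes of -0.17, -0.08, -0.04 and -0.04, and Pdgfrb was at 0.02. Anpep, Rgs5 and Tagln had log2 fold changes of 0.68, 0.62 and 0.27 (edgeR adjusted p = 0.390, 0.629 and 0.703), and without with-peak tumor 2 these were 0.38, 0.15 and 0.13.

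Genes of the hypoxia list, which include known partners of Vegfa in the response to low oxygen, had a median of -0.07. Of 17 tested, 6 were positive and 0 were called. Without before-peak tumor 2 the median was 0.12 with 11 of 17 positive. Their sum was 4198, 3797 and 4251 CPM in with-peak tumors 1, 2 and 3, against 3541, 4836 and 4101 CPM in before-peak tumors 1, 2 and 3. As for Vegfa, before-peak tumor 1 was the lowest and before-peak tumor 2 the highest. Vldlr, Ndrg1 and Epas1 had the smallest p-values, with log2 fold changes of 0.74, -0.32 and 0.38 (edgeR adjusted p = 0.547, 0.640 and 0.709). Leaving out 1 tumor brought Vldlr to 0.42 (before-peak tumor 1), Ndrg1 to -0.12 (before-peak tumor 2) and Epas1 to 0.06 (with-peak tumor 2).

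**Figure D5:**
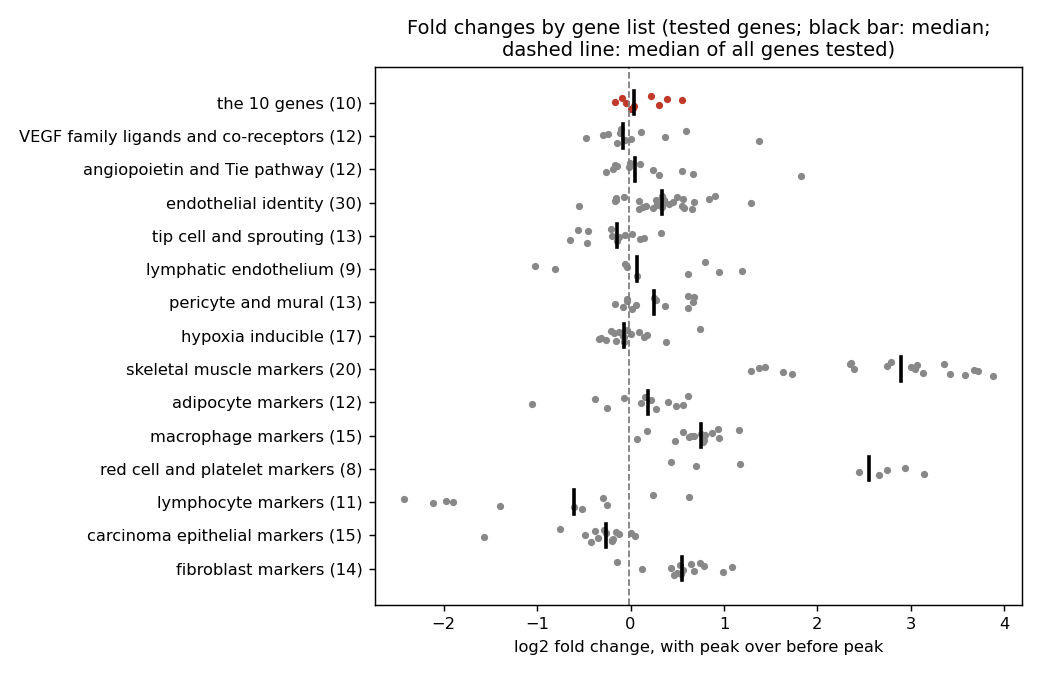
log2 fold change (x axis, with peak over before peak) of every tested gene in each list, with the number tested in brackets, the 10 genes in red, list medians as black bars and the median of all genes tested (-0.02) as a dashed line. The 10 genes lie around 0 with a median of 0.04, the endothelial identity list has a median of 0.34, and the skeletal muscle list one of 2.89.

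Lists for the other cells of the tumor held 0 called genes by edgeR. Skeletal muscle, red cell and platelet, macrophage, fibroblast and adipocyte markers had median log2 fold changes of 2.89, 2.56, 0.75, 0.55 and 0.18. With with-peak tumor 1 alone against the before-peak tumors, these medians were 0.67, 0.51, 0.57, 0.08 and -0.93. Without with-peak tumor 2 the fibroblast median was 0.21 and the adipocyte median -0.31, with 3 of 12 adipocyte genes positive. Carcinoma epithelial markers had one of -0.26, or -0.11 without before-peak tumor 2, and lymphocyte markers one of -0.61, which was 1.31 without before-peak tumor 3. The smallest p-values were those of Ryr1, Neb and Mb (log2 fold changes 3.00, 2.36 and 1.44) for muscle and of Alas2, Hbb-bt and Hba-a1 (2.94, 3.14 and 2.45) for red cells. For macrophages they were those of Arg1, Cd14 and Fcgr1 (0.94, 0.87 and 0.80), for fibroblasts of Pdgfra, Dcn and Mfap5 (0.56, 0.99 and 0.74), and for adipocytes of Lep, Slc2a4 and Fabp4 (-1.05, 0.62 and 0.56). Krt5, Cdh1 and Krt14 (-1.57, -0.49 and -0.35) came first among carcinoma markers, and Nkg7 and Ms4a1 (0.63 and -2.42) among lymphocyte markers. The smallest edgeR adjusted p over these lists was 0.0976, for Arg1, and DESeq2 called Ryr1, Neb, Alas2, Hbb-bt, Arg1, Cd14, Fcgr1 and Krt5 of these named genes. Ryr1, Mb, Alas2, Krt5, Pdgfra, Ccbe1, Dll4, Ndrg1 and Tagln share exon bases with a counted gene on the opposite strand, and the globin genes have near-identical copies, so reads may be shared between these and their neighbours or copies.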

How the data were processed

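RNA had been isolated with Trizol from snap-frozen tumors, selected with oligo(dT) and sequenced in paired-end libraries that do not mark strand, per the labels' protocols. The authors deposited unnormalized whole-number counts for each gene in 6 tumors. FastQC, STAR and the mm10 build are named without versions, per the submitters' processing notes, while no read counter or annotation is given in the sources used here. Of 23508 Ensembl identifiers, 23479 matched GENCODE M21 on GRCm38, the assembly that mm10 also names, which gave symbols, coordinates and exon lengths.

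The 10 genes and the 14 lists of other genes were chosen with earlier results of these data known. Counts were fitted in edgeR 4.0.16 (R 4.3.3) by the robust quasi-likelihood test (two-sided) with 3 tumors in each group and no covariate, after TMM scaling and filterByExpr (minimum count 10, minimum total 15), which kept 16755 genes. P-values were adjusted over all of these with a threshold of 0.05. SEs are the fold change divided by the square root of F. The script was tested on simulated counts. From each list the 3 genes of smallest p were named, except 1 that is not reported here, as were the 5 genes most like Kdr and Vegfa; other named genes were chosen after their values were seen. Log2 CPM used a prior count of 2. Intervals cover the spread between tumors under the fit. Alternatives were RLE factors, library size alone, other filters, DESeq2 1.42.0 and limma-voom (limma 3.58.1) on the same counts, the replicate number as a block, and fits with fewer tumors. No library was a duplicate of another in its group: chi-square per degree of freedom was 14.3 to 24.2 for pairs within a group. Pairs between the groups were not compared. Promoters are from RefSeq on GRCm38.p6.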

Additional observations from a re-analysis of the deposited data

How the results depend on the processing

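None of the 15 alternatives called any of the 10 genes. Over all genes tested, edgeR called 0 higher and 0 lower, against 242 higher and 24 lower by DESeq2, 26 and 3 with no filter on low counts and 4 and 0 with 2 against 2 tumors (without replicate 3 of each group); leaving out each tumor in turn called 0 to 17 higher and 0 lower. The cause was not tested. No pairing is stated in the labels, and deviations of same-numbered tumors correlated at -0.06, -0.10 and 0.03; the replicate block called 1 gene higher and 0 lower, and gave Vegfa 0.06. The sign of a log2 fold change turned in 30 alternative values of the 10 genes and held in 120. With each tumor left out, it ran from -0.24 to 0.29 for Vegfa, -0.13 to 0.19 for Vegfb, -0.13 to 0.29 for Vegfc, -0.14 to 0.54 for Kdr, -0.24 to 0.13 for Flt1, -0.36 to 0.04 for Flt4, -0.28 to 0.03 for Angpt2 and -0.04 to 0.46 for Pecam1. For Tek and Angpt1 the log2 fold change stayed positive with each tumor left out, at 0.1 to 0.79 and 0.09 to 0.66. Vegfa was 0.00 with RLE factors and DESeq2 and 0.06 by limma-voom, and Vegfb and Vegfc -0.02 with library size alone, which shifts the median of all genes by -0.058. With 2 against 2 tumors Kdr was 0.68, Tek 0.80, Angpt1 0.73 and Pecam1 0.63, against 0.30, 0.55, 0.39 and 0.22 with all 6, while Vegfa was 0.01, Vegfb -0.13, Vegfc, Flt1 and Flt4 0.04 and Angpt2 0.03. With-peak tumor 1 alone against 3 before-peak tumors, assumed to vary like them, gave Vegfa 0.05, Vegfb 0.13, Vegfc 0.04, Kdr 0.01, Flt1 0.02, Flt4 -0.09, Tek -0.10, Angpt1 -0.06, Angpt2 0.09 and Pecam1 0.26. Among other genes, it gave Slc2a4 -0.52 and Fabp4 -0.17, and Fabp4 ran from -0.06 to 0.90 with each tumor left out and Ms4a1 from -3.01 to 2.17; limma-voom and 2 against 2 tumors gave Ms4a1 0.80 and 1.57. Depth limits Angpt1 most, at 29 to 70 counts a tumor. The alternatives for list medians, correlations and transcript length were chosen after seeing the data.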
